A study of Mus musculus with 2 samples.

Results

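The 7 keratin genes Krt5, Krt14, Krt15, Krt1, Krt10, Krt2 and Krt77 were followed through the single-cell data of newborn mouse epidermis. They were chosen by symbol as the keratins that mark the basal and the suprabasal layers, and each symbol matched 1 of the 56694 genes counted. The data consist of 2 libraries from back skin at postnatal day 2, 1 from Gli2_EKO mice and 1 from control mice. Gli2_EKO mice are K14Cre tg; Gli2 fl/fl, so that Cre under a Krt14 promoter deletes the Hedgehog effector Gli2 in keratinocytes from embryonic life on. The control library is labelled WT, and by the study's methods controls were floxed littermates without Cre, on the same C57Bl/6N background. The number of mice behind each library is not given in the sources used here. Because Krt14 is itself a member, the transgene's promoter and one of the measured genes are the same, and Gli2_EKO cells carry both.

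Keratins form filaments only as pairs of an acidic type I and a basic type II chain. In the basal layer of the epidermis, where cells divide and are attached to the basement membrane, the pair is Krt14 (type I) with Krt5 (type II), with Krt15 as a second type I chain of basal cells and of hair follicle progenitors. When a cell leaves the basement membrane it stops making this pair and makes Krt10 (type I) with Krt1 (type II), which is the classical sign of commitment to differentiation. Krt2 and Krt77 are type II keratins of later or more restricted suprabasal expression, Krt2 in upper layers and Krt77 known also from the ducts of human sweat glands.

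All 7 genes lie on the minus strand of GRCm39, in the keratin cluster of their type. The type I genes are on chromosome 11, Krt10 at chr11:99276072-99280195, Krt15 at chr11:100022584-100026775 and Krt14 at chr11:100093988-100098490. The type II genes are on chromosome 15, Krt5 at chr15:101615505-101621346, Krt2 at chr15:101719124-101726605, Krt1 at chr15:101753861-101759229 and Krt77 at chr15:101767166-101778245. The assay reads the polyA end of a transcript and counts molecules by unique molecular identifiers (UMIs), so levels of different keratins can be compared without correction for length. The last 500 bases of the 7 transcripts were aligned to other genes, and no alignment of a read's length (89 bases) or more was identical throughout. The closest were Krt14 to Krt17, at 95.7% identity over 186 bases, and Krt15 to Krt13, at 89.9% over 99 bases. Identical stretches inside such longer alignments were not searched for, so reads shared by Krt14 and Krt17 are not excluded.

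The bases just before the transcription start are shown for a basal and for 2 suprabasal members, to compare the promoters of genes that are used in opposite layers. Sequences are from 80 to 11 bases before the start on the gene's strand, from the RefSeq promoter table (placed on GRCm39 by exact match), and capitals mark the letters TATANA, a search form of the TATA box. The 3 windows lie at chr15:101621351-101621420, chr11:99280201-99280270 and chr15:101726615-101726684.
Krt5: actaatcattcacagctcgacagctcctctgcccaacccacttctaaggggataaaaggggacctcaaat
Krt10: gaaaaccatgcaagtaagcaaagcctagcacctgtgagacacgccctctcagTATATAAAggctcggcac
Krt2: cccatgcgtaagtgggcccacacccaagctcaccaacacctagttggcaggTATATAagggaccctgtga
The letters were found 26 and 28 bases before the start in Krt10 (overlapping), 29 before it in Krt2, and 28 and 30 before it in Krt77 (overlapping), and nowhere in the window of Krt5. The Krt5 window does hold ataaaa, which the search letters do not match. Looser forms of the TATA box were not searched for, so its absence from Krt5 is not shown. The start used for Krt77 lies 105 bases from the annotated one. The table's window for Krt14 lies 1634 bases from the annotated start, inside the gene, and was therefore not read as a promoter. Of 32544 RefSeq promoters of the same length, 17.7% held TATANA on the gene's strand and 3.08% held it from 16 to 40 bases before the start. Promoters of Krt1 and Krt15 were not analysed here. TGANTCA and GCCNNNGGC, search forms of the AP-1 and AP-2 sites, were not found on either strand in the windows of Krt5, Krt10, Krt2 and Krt77. Of all promoters, 7.79% and 16.7% held them.

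The control library held 6326 barcodes and the Gli2_EKO library 4296, of which 4844 and 3362 were kept as cells (more than 1000 but fewer than 8000 genes, less than 15% of UMIs mitochondrial). They carried 67366296 and 46703537 UMIs, with medians of 12275.5 and 12169 UMIs per cell, and the libraries shared 0 barcodes. Cells were grouped with all keratin genes left out of the genes that defined the clusters. This gave 13 keratinocyte clusters and 10 others, of which 5 were fibroblast-like by Col1a1, Col3a1 and Fbn1. A basal-like class of the interfollicular epidermis (267 control and 405 Gli2_EKO cells) was named from Aqp3, Thbs1, Col17a1 and other basal markers. A suprabasal-like class (227 and 320 cells) was named with the list of granular markers as its best match (score 2.89). Calm4 and Krtdap were among its leading genes. With cells thinned to the same number of UMIs, 504 of its 547 cells had no UMI of the granular gene Lor. The name therefore does not mean that most of its cells are granular. The basal-like and suprabasal-like classes made up 7.67% and 6.52% of control keratinocytes, against 16.8% and 13.3% of Gli2_EKO keratinocytes. A cluster led by histone and mitotic genes, with the basal list as its best match but below the score set for a name, is called the dividing cluster (292 and 313 cells, 8.39% and 13.0%). With 1 library per genotype no test between genotypes is possible. Intervals are 95% and cover counting error only, and a difference between the genotypes cannot be told apart from one between libraries.

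The basal pair was the most abundant of the 7 over all cells. Krt14 in CPM, its UMIs scaled to the same total in every set of cells, stood at 3420 in control and 6264 in Gli2_EKO cells, and Krt5 at 2409 and 3747. Krt10 followed at 1834 and 3302 CPM and Krt1 at 1240 and 2419, then Krt15 at 1205 and 1414. In control cells Krt1 and Krt15 were therefore close, with intervals of 1232 to 1249 and 1197 to 1214 CPM. Krt77 reached 55.9 and 33.1 CPM. Krt2 was close to absent at this age, with 19 UMIs in control and 27 in Gli2_EKO cells in all.

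The basal pair was spread over many kinds of keratinocyte and the suprabasal pair was not. The suprabasal-like class held 92.5% of all Krt10 UMIs in control and 94.5% in Gli2_EKO cells, and 91.3% and 93.5% of Krt1. For Krt77 its share was 68.9% and 69.4%. The basal-like class held 28.5% and 35.6% of Krt14, 24.7% and 34.1% of Krt5 and 22.9% and 31.0% of Krt15, and the dividing cluster and follicle clusters held most of the rest. The typical cell reflected this: the median cell of either library had no Krt1 UMI, while the median cell had 10 Krt5 UMIs in control and 20 in Gli2_EKO.

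Dermal cells set the background. In fibroblast-like cells (1014 control and 736 Gli2_EKO), Krt14 stood at 644 and 1093 CPM, Krt5 at 459 and 679, Krt15 at 248 and 299, Krt10 at 159 and 188, Krt1 at 105 and 141 and Krt77 at 5.89 and 3.23. Krt2 had 0 and 4 UMIs there. A large part of these UMIs lay in few cells, since the 10 fibroblasts with the most held 37.3% and 40.4% of the Krt14 and 49.4% and 57.5% of the Krt10. With the 8% of cells with the highest doublet score removed from each library, the 7 genes together fell from 1621 and 2403 CPM to 349 and 331, and Krt14 to 106 and 102. After thinning every cell to 2000 UMIs, a UMI of Krt14 was found in 23.4% and 22.4% of fibroblasts, of Krt10 in 16.4% and 17.1%, of Krt1 in 9.01% and 9.85% and of Krt77 in 0.297% and 0.410%. The ratio of Krt14 to Krt5 in fibroblasts (1.41 and 1.61) was near that of the whole library (1.42 and 1.67). In the other kinds of cell that are not keratinocytes it ran from 0.916 to 1.40 in control and from 0.512 to 1.93 in Gli2_EKO. The mix of keratins in fibroblasts was not that of the library. Krt1 and Krt10 made up 19.3% and 15.7% of the UMIs of Krt5, Krt14, Krt1 and Krt10 there, against 34.5% and 36.4% over all cells.

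Krt10 was low in most of the follicle. It lay at 58.6 to 153 CPM in the control clusters outside the interfollicular classes, the dividing cluster and the sebaceous cluster, compared with 159 in control fibroblasts. The same clusters of Gli2_EKO lay at 66.2 to 135 CPM, compared with 188 in fibroblasts, apart from the companion layer at 215 and the inner root sheath. The highest of these levels rested on single cells. In the control sebaceous cluster (45 cells) Krt10 stood at 1005 CPM, of which 983 of 1033 UMIs came from 1 cell, and without the 2 highest cells the level was 47.4. In the inner root sheath cluster of Gli2_EKO (139 cells) Krt10 stood at 1163 CPM, and 2 cells held 92.2% of it; without them the level was 99.6. The fibroblast level rested in part on few cells as well, and without its 2 highest cells it was 90.5 and 114 CPM. On the same terms, the control companion layer was at 97.6, the outer root sheath at 96.0 and the upper follicle at 93.6, slightly over it, and the Gli2_EKO companion layer at 171. These fibroblast levels include cells with top doublet scores, without which the keratins together were far lower in fibroblasts, as given above. The follicle clusters were not set against fibroblasts without such cells, so their Krt10 is not shown to be at background. The basal-like class had Krt10 at 233 and 259 CPM, over the fibroblast level (159 and 188), and at 192 and 201 without the 2 highest cells, and Krt1 at 432 and 334, over the fibroblast level of 105 and 141.

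The 3 basal keratins were most abundant in the basal-like class. Krt14 stood there at 16034 CPM in control (interval 15912 to 16157) and at 18414 in Gli2_EKO (18303 to 18526). Krt5 stood at 9785 and 10545 CPM and Krt15 at 4531 and 3620. Every cell of the class had a Krt5 UMI, also after thinning. In the dividing cluster the levels were lower in both libraries, at 8890 and 11675 CPM for Krt14, 6025 and 7277 for Krt5 and 3004 and 2837 for Krt15. In the suprabasal-like class Krt14 was still at 6369 and 7995 CPM, Krt5 at 2360 and 3112 and Krt15 at 1384 and 1410.

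Krt5, Krt14 and Krt15 kept different proportions in different compartments. The ratio of Krt14 to Krt5 UMIs was 1.64 (interval 1.62 to 1.66) in the control basal-like class and 1.75 (1.73 to 1.76) in Gli2_EKO. In the suprabasal-like class it was higher, at 2.70 and 2.57. In the outer root sheath cluster it was 0.790 and 0.741, so that Krt5 was more abundant than Krt14. In the sebaceous cluster it was 9.32 and 9.17, the highest of the 13 keratinocyte clusters in both libraries. Krt15 in the outer root sheath stood at 2797 and 2923 CPM beside 2779 and 2573 for Krt14, whereas in the basal-like class it was far below Krt14. Type I over type II, summed over the 7 genes, was 2.03 and 2.05 in the basal-like and 1.70 and 1.64 in the suprabasal-like class. With Krt15 counted, it was 1.59 and 1.58 in the outer root sheath cluster.

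The suprabasal pair was the most abundant in the suprabasal-like class. Krt10 reached 21535 CPM in control (interval 21411 to 21660) and 21216 in Gli2_EKO (21107 to 21325), and Krt1 reached 14383 and 15391. A Krt1 UMI was found after thinning in 86.8% of the control and 92.8% of the Gli2_EKO cells of the class, and a Krt10 UMI in 85.02% and 90.6%. The ratio of Krt10 to Krt1 was 1.497 (1.48 to 1.51) in control and 1.38 (1.37 to 1.39) in Gli2_EKO, whereas in the basal-like class it was 0.540 and 0.777. Hence of the little suprabasal keratin found in basal-like cells the larger part was Krt1, and in the suprabasal-like class it was Krt10. In fibroblasts the ratio was 1.52 and 1.34, near that of the suprabasal-like class.

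Krt77 was the member that differed most between the libraries inside the epidermal classes. In the suprabasal-like class it stood at 489 CPM in control (interval 470 to 508; 2593 UMIs) and 157 in Gli2_EKO (1075 UMIs), a log2 ratio of Gli2_EKO over control of -1.64 (-1.75 to -1.54). After thinning, 30.8% of the control cells (24.9 to 37.3) and 10.9% of the Gli2_EKO cells (7.74 to 14.9) had a Krt77 UMI. It was lower in Gli2_EKO also in the basal-like class (95 against 23 UMIs, log2 ratio -2.51), in the dividing cluster (503 against 169 UMIs, -1.61) and in the upper follicle cluster (333 against 74 UMIs, -1.37). The companion layer cluster had the opposite order, with 32.9 CPM in control and 107 in Gli2_EKO, but 2 cells held 95.9% and 71.8% of these UMIs. Krt77 was also higher in Gli2_EKO in the matrix cluster (11 against 19 UMIs, log2 ratio 2.02, 0.88 to 3.24), where 1 cell held 16 of the 19, and in the inner root sheath (10 against 22 UMIs, 2.36, 1.22 to 3.6001). Krt77 was concentrated in few cells throughout, as 10 cells held 36.7% of its UMIs in the control and 47.3% in the Gli2_EKO suprabasal-like class. Without the 10 cells with the most Krt77 UMIs in each library the log2 ratio in that class was -1.97.

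Over all cells, 4 of the 6 members with at least 50 UMIs were higher in Gli2_EKO by a log2 ratio of 0.5 or more, among 5.3% of the 17975 genes tested, and 1, Krt77, was lower by as much, among 10.5%. The log2 ratio of Gli2_EKO over control was 0.96 for Krt1 (interval 0.95 to 0.98), 0.87 for Krt14, 0.85 for Krt10 and 0.64 for Krt5, compared with a median of -0.11 over all genes. Krt15 was at 0.23 and Krt77 at -0.75. In the same cells the share of interfollicular classes among keratinocytes differed, as given above. When the Gli2_EKO clusters were weighted to the control proportions, the log2 ratio of Krt5 and Krt14 together was 0.33 in place of 0.78, and that of Krt1 and Krt10 together 0.03 in place of 0.90. In such sums, more cells of a class and more RNA per cell cannot be told apart, and the levels within a class were therefore set beside them.

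Within the interfollicular classes the differences were smaller. In the basal-like class the log2 ratio was 0.11 for Krt5, 0.20 for Krt14, -0.32 for Krt15, -0.37 for Krt1 and 0.15 for Krt10. In the suprabasal-like class it was 0.40 for Krt5, 0.33 for Krt14, 0.03 for Krt15, 0.10 for Krt1 and -0.02 for Krt10. None of the 6 members was higher by 0.5 or more in either class (4.91% of 9906 genes were in the basal-like and 3.8% of 9933 in the suprabasal-like class), and Krt77 was the member lower by as much in both (7.32% and 8.77% of genes). The medians over all genes were -0.02 and -0.06. Krt2 had 5 UMIs in the control and 17 in the Gli2_EKO suprabasal-like class, which gives a ratio of 2.63 with a log2 interval of -0.10 to 3.19.

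**Figure D1:**
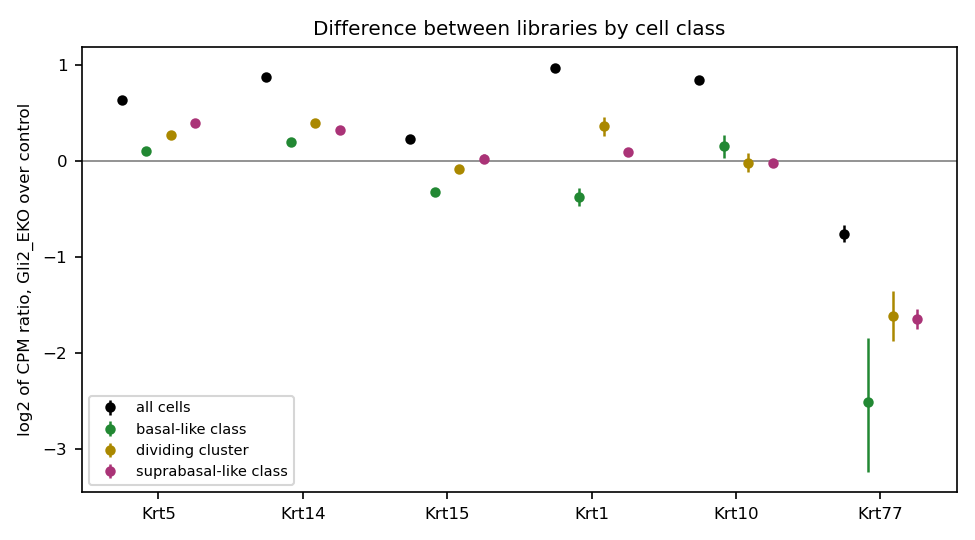
Log2 ratio of CPM, Gli2_EKO over control, for 6 keratins over all cells (black) and within the basal-like class (green), the dividing cluster (ochre) and the suprabasal-like class (purple), with 95% counting intervals. For Krt1 and Krt10 the ratio over all cells (0.96 and 0.85) is far from that in the suprabasal-like class (0.10 and -0.02), and Krt77 is below 0 in all 4 sets.

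Outside the interfollicular classes Krt15 differed between the libraries in both directions. Among the keratinocyte clusters, Krt5 and Krt14 differed most in the matrix. In the upper follicle cluster Krt15 stood at 2228 CPM in control and 1146 in Gli2_EKO, a log2 ratio of -0.96 (-1.02 to -0.90), while Krt5 and Krt14 of the same cells differed by 0.21 and 0.29. A Krt15 UMI was found after thinning in 86.5% and 69.8% of these cells. The log2 ratio of Krt15 was also negative in the hair shaft (-1.86), sebaceous (-1.74, 124 against 30 UMIs) and inner root sheath (-0.74) clusters. In the matrix it was 0.89 and in the outer root sheath 0.06. In the matrix cluster, the dividing cells at the base of the follicle, Krt14 was at 468 CPM in control and 1843 in Gli2_EKO, and Krt5 at 725 and 1630. The control value for Krt14 was below, and the Gli2_EKO value above, the fibroblast level of its library (644 and 1093). That fibroblast level includes cells with top doublet scores. Without them it was far lower, as given above, and the matrix values of both libraries lay over that lower level. The matrix values were not read without such cells.

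The switch was followed cell by cell as the suprabasal share, which is the UMIs of Krt1 and Krt10 over those of Krt1, Krt10, Krt5 and Krt14, in cells thinned to 2000 UMIs with at least 20 UMIs of these 4 genes. That left 951 control cells (19.7% of those deep enough) and 1172 Gli2_EKO cells (35.1%). Most were at one of the ends. A share under 0.1 was found in 743 control and 869 Gli2_EKO cells, and a share of 0.9 or more in 84 and 111. Between these limits lay 13.0% of the control cells (10.96 to 15.3) and 16.4% of the Gli2_EKO cells (14.3 to 18.6), and at 0.5 or over lay 15.5% (13.2 to 17.9) and 16.7% (14.6 to 18.99). The intervals of the libraries overlap in both measures at these settings. For the cells between the limits they do not overlap when cells are thinned to 5000 UMIs (8.52%, 7.24 to 9.95, in control and 12.5%, 11.002 to 14.2, in Gli2_EKO) or with at least 10 keratin UMIs (11.1%, 9.55 to 12.7, and 15.3%, 13.6 to 17.1). At the other settings tried the intervals overlap. With at least 50 keratin UMIs the control value was the higher (25.7% and 24.2%), and by the type I share the values were 15.4% and 16.1%. In the interfollicular classes alone, 22.8% of control and 24.2% of Gli2_EKO cells lay between the limits, and these intervals overlap. From 0.4 to under 0.6 there were 24 and 36 cells.

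The cells between the ends were mainly suprabasal-like. Of the 124 control cells between 0.1 and 0.9, 87 were in the suprabasal-like and 18 in the basal-like class, and of the 192 Gli2_EKO cells 155 and 13 were. Top doublet scores were found in 8.87% and 8.33% of the cells between the ends and in 7.26% and 8.78% of those at the ends. None of the 262 control and 404 Gli2_EKO basal-like cells with enough keratin had a share of 0.5 or over, which allows up to 1.40% and 0.909% of such cells. In the suprabasal-like class the median share was 0.815 in control and 0.758 in Gli2_EKO. There 43.9% of control cells (36.9 to 51.2) and 53.3% of Gli2_EKO cells (47.4 to 59.1) lay between the ends, and 70.7% (63.8 to 76.9) and 65.3% (59.5 to 70.8) at 0.5 or over. Both pairs of intervals overlap.

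**Figure D2:**
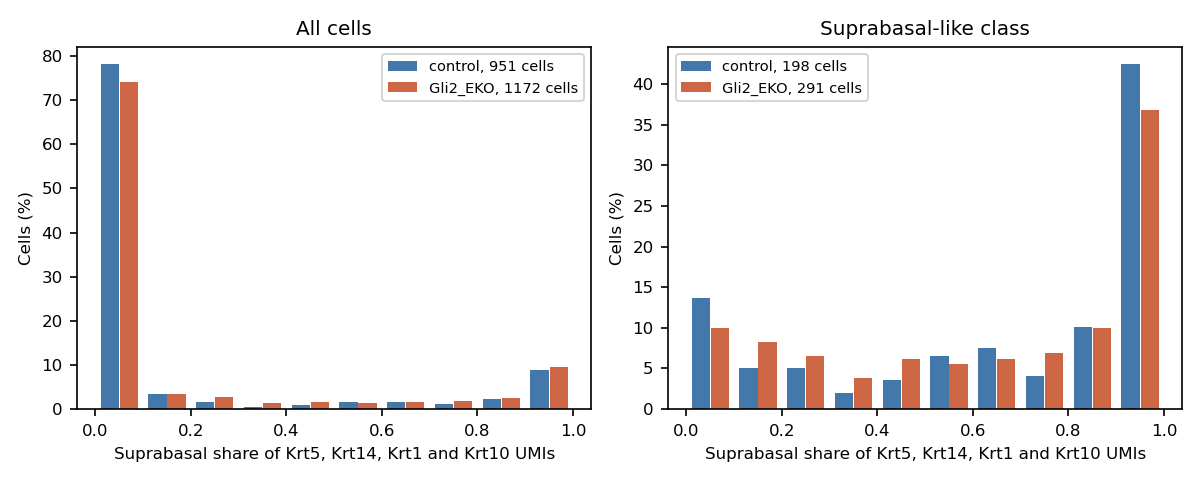
Suprabasal share of the UMIs of Krt5, Krt14, Krt1 and Krt10 per cell, in 10 equal bins, as percent of cells with at least 20 such UMIs, for all cells (left) and the suprabasal-like class (right), control in blue and Gli2_EKO in orange. Over all cells 78.1% of control and 74.1% of Gli2_EKO cells are in the lowest bin, and in the suprabasal-like class the highest bin holds the most cells of either library.

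To order the members along the switch, each type was read on an axis made of the other. On the axis of Krt10 over Krt10 and Krt14, Krt1 stood at 643 CPM in control and 551 in Gli2_EKO in the lowest of 10 bins, at 4607 and 4956 in the next, and at 23865 and 23215 in the highest. Krt5 stood at 9441 and 10355 CPM in the lowest bin, at 9293 and 7934 in the next, and at 188 and 355 in the highest. Thus in the bin next to the lowest, Krt1 was well above its level in the lowest bin and Krt5 was far from its lowest. On the axis of Krt1 over Krt1 and Krt5, given below, Krt10 likewise rose from the lowest bin to the next. Which of Krt1 and Krt10 rises earlier was not tested.

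On the axis of Krt1 over Krt1 and Krt5, where Krt5 itself was not read, Krt14 did not fall at once. It stood at 16433 CPM in control and 18655 in Gli2_EKO in the lowest bin, at 20991 and 22395 in the third, and fell to 2131 and 2501 in the highest. Krt15 went from 4523 and 3579 CPM in the lowest bin to 841 and 700 in the highest. Krt10 stood at 209 and 153 CPM in the lowest bin, at 985 and 2011 in the next, and at 37121 and 32762 in the highest. Krt14 was higher in Gli2_EKO in 9 of 10 bins and Krt15 was lower in 8 of 10, while Krt10 was higher in 6 and lower in 4. The middle bins hold 7 to 34 cells per library on this axis and 4 to 24 on the other, so single middle values carry little weight.

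Krt77 behaved unlike the pair. In control it was at 116 CPM in the lowest bin of the Krt10 axis, at 795 and 930 in the sixth and seventh and at 522 in the highest. In Gli2_EKO it was at 18.2, 123, 215 and 161 CPM in these bins, with its highest value, 342, in the eighth. Control was higher in 8 of the 10 bins. The lowest and the highest bins, the only ones with at least 20 cells in both libraries, hold 295 and 81 control cells and 445 and 103 Gli2_EKO cells, and control was higher in both.

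**Figure D3:**
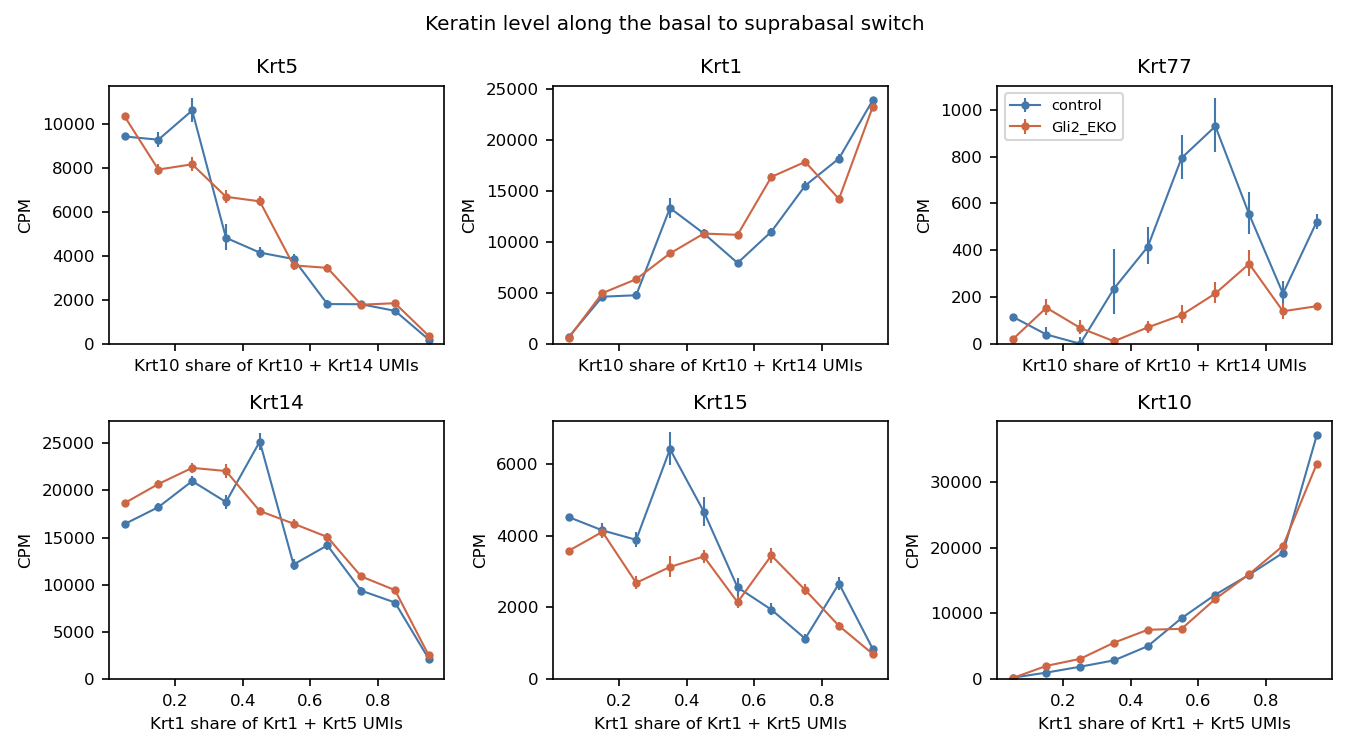
Level (CPM) of the type II keratins Krt5, Krt1 and Krt77 along the Krt10 share of Krt10 and Krt14 (top), and of the type I keratins Krt14, Krt15 and Krt10 along the Krt1 share of Krt1 and Krt5 (bottom), in the interfollicular classes of the control (blue) and Gli2_EKO (orange) library; points are bins of cells and bars 95% counting intervals. Krt5 and Krt14 go down and Krt1 and Krt10 go up in both libraries, and the Krt77 points of control lie above those of Gli2_EKO in 8 of 10 bins.

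Above the spinous layer, granular cells make the proteins of the future horny layer, such as Lor (loricrin) and Flg (filaggrin). Cells with 20 or more Lor UMIs after thinning numbered 8 in the control and 2 in the Gli2_EKO suprabasal-like class. They were looked at after their values were seen. The 8 control cells held 649 to 6168 Lor UMIs each but 1 to 4 Krt1 UMIs and 0 to 13 Krt10 UMIs, with 10451 to 82591 UMIs in all and none with a top doublet score. The 2 Gli2_EKO cells held 278 and 620 Lor UMIs, and still 593 and 1087 Krt1 UMIs and 804 and 1913 Krt10 UMIs. The 11 control cells with 1 to 4 Lor UMIs after thinning had Krt10 at 30425 CPM and Krt14 at 104, and the 17 such Gli2_EKO cells had Krt10 at 32703 and Krt14 at 2625, counted without Lor. The median such cell had Krt14 at 93.9 CPM in control and 114 in Gli2_EKO.

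The genes that accompany the switch were grouped in 6 lists, whose counts are read against the shares of all genes given above. Of the 9 granular genes, all were lower by 0.5 or more in the Gli2_EKO suprabasal-like class, with a median log2 ratio of -2.72. Lor stood at 4876 CPM in control and 245 in Gli2_EKO and Flg at 3744 and 1393. The count rested on the Lor-rich cells just described: without those 10 cells the median was 0.27, with 3 genes higher and 1 lower. Of the 13 early differentiation genes, 1 was lower, Calm4 (5575 and 3903 CPM, log2 ratio -0.51), and the median was -0.01. Calm4 too rested on those cells, since the 8 in control held 9081 of its 29581 UMIs, and without the 10 cells 0 of the 13 genes were lower. Krtdap, a secreted product of spinous cells, stood at 9339 and 9938 CPM. In the basal-like class 3 of the 12 genes tested were lower, among them Dsp (desmoplakin, 1601 and 1121 CPM) and Sbsn (59.3 and 35.7 CPM), and none was higher, with a median of -0.11. Of the granular genes 3 had enough UMIs there, and 2 were higher, Asprv1 (99 against 254 UMIs, 0.89) and Flg (21 against 43 UMIs, 0.57, interval -0.22 to 1.40). Over all cells 6 of the 13 early differentiation genes were higher (median 0.44) and 6 of the 9 granular genes lower (median -0.73).

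Of the 12 genes that anchor basal cells to the basement membrane, 1 was lower by 0.5 or more in the basal-like class, with a median of -0.31, and 2 in the suprabasal-like class, with a median of -0.33. Dst, which links keratin filaments to hemidesmosomes, was at 928 CPM in control and 536 in Gli2_EKO basal-like cells, a log2 ratio of -0.79 (-0.86 to -0.72). Col17a1, the hemidesmosome collagen, was at 972 and 728 CPM there (-0.42) and Itga6 at 588 and 471 (-0.32), both short of the limit. Itga3 in the suprabasal-like class had 47 and 24 UMIs (-1.34).

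Of the epidermal regulators, 16 had enough UMIs in the basal-like class, where 1 was higher (Notch3, 27 against 59 UMIs, with an interval of -0.02 to 1.38) and 2 were lower, among them Klf4 (244 and 169 CPM, -0.53), with a median of 0.05. In the suprabasal-like class 1 of 18 was lower, Grhl3 (33.5 and 22.6 CPM, -0.57), with a median of -0.16. Of 10 proliferation genes, 3 were lower in each class, Mki67 among them (87.3 and 46.8 CPM in the basal-like class), and none was higher, with medians of -0.22 and -0.47. The classes leave out the dividing cluster, which held 8.39% of control and 13.0% of Gli2_EKO keratinocytes. These counts therefore do not describe the proliferation of basal cells as a whole. Of 10 genes of the dissociation stress response, Hspa1a and Hspa1b were higher in Gli2_EKO basal-like cells (log2 ratios 0.54 and 0.62) and Fosb and Atf3 lower (-1.79 and -0.88), while 2 were lower in the suprabasal-like class, Egr1 (-0.60) and Fosb (-0.57). The medians of this list were -0.23 and -0.32. Without the 10 Lor-rich cells, 4 stress genes, 4 proliferation genes and 3 anchoring genes were lower in the suprabasal-like class. The part of this response in the keratin values was not tested.

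The genes whose level followed each member most closely over the 23 clusters of both libraries (46 points, 7709 genes, log2 scale) divided along the same line. Pearson's r is given as a description, since points share a library and a depth. Krt5 and Krt14 were nearest to Ckmt1 (0.93 and 0.89), a mitochondrial creatine kinase. Krt15 was nearest to Col17a1 (0.93), which also followed Krt5 (0.90). Krt1, Krt10 and Krt77 were each nearest to Calm4 (0.87, 0.85 and 0.77), a calmodulin-like protein of differentiating keratinocytes, and Krt2 to Csta1 (0.69). Among the members themselves Krt1 with Krt10 reached 0.93 and Krt5 with Krt14 0.91, whereas Krt5 with Krt10 reached 0.33. The members were less cleanly divided than that, since Krt14 with Krt1 reached 0.54. Krt77 followed Krt14 (0.54) as closely as Krt1 (0.54).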

How the data were processed

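RNA of dissociated back skin epidermis was measured in 2 libraries, 1 per genotype, with a 10x 3' v4 polyA assay. The authors ran Cell Ranger 9.0.1 on GRCm39 with GENCODE M30 and deposited raw UMI counts for each gene and barcode of a library, not normalized. From these counts everything else was computed here. Cells were kept at over 1000 and under 8000 genes and under 15% mitochondrial UMIs. Doublets were scored with Scrublet in scanpy 1.11.5 (expected rate 0.06) and kept in the main values. Clustering was run in Seurat 5.3.0 under R 4.3.3 (2000 variable genes without keratins, 20 principal components, a rewritten Harmony integration, Louvain at resolution 0.5), first over all cells and then over keratinocytes. A cluster was set aside as another cell type where, on average, a marker of that type had a UMI in over a 0.4 share of its cells. A cluster was named from markers when they scored 1 or more and 3 or more of them were present in 10% of cells, and the score was chosen after the data were seen.

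Summed UMIs of a class were scaled to CPM, with an exact Poisson interval, shares with Clopper-Pearson intervals, and ratios with conditional binomial intervals, all at 95%. None of them covers more than counting error. Genotypes were not tested against each other, each having 1 library. A gene was counted as higher or lower at a log2 ratio of 0.5 or more, with at least 50 UMIs over both libraries. The step was tried on simulated counts that held counting error alone, so the trial does not cover differences between libraries. Besides the 7 members, the genes named are drawn from the 3 most similar to each (1 of these genes is not reported here), and from each list the 3 most abundant and the 2 with the largest ratios in each class; others, and the Lor-rich cells, were chosen after their values were seen. Members and lists were chosen with earlier results of these data known. Tail and promoter sequences are from the reference of the same build and from RefSeq. Alternatives are given in the closing section.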

Additional observations from a re-analysis of the deposited data

Results flagged for a closer look

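Krt1 and Krt10 drew attention because their ratios between the libraries had opposite signs in the 2 interfollicular classes. The log2 ratio of Gli2_EKO over control was -0.37 for Krt1 in the basal-like class and 0.10 in the suprabasal-like class. For Krt10 it was 0.15 in the basal-like class and -0.022 in the suprabasal-like class. With 1 library per genotype the difference between the classes was not tested, and the basal-like levels were low, at 432 and 334 CPM for Krt1 (fibroblasts 105 and 141) and 233 and 259 for Krt10 (fibroblasts 159 and 188).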

How the results depend on the processing

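Of 102 alternative values of the main measures, 44 stayed within the interval of the value reported, 58 moved and 0 were counted as reversed. Of 261 other values 149 stayed, 110 moved and 2 reversed. A reversal was counted only for log2 ratios reported at 0.5 or more in either direction and for list medians. Shares of cells were labelled for each library alone, so a change in the order of the libraries was not counted. Such changes are seen below at 0.5 or over with 50 keratin UMIs and by the type I and type II shares, and between 0.1 and 0.9 with 50 UMIs. No paired analysis was possible because each genotype has 1 library. The reversals were Krt10 over all cells, at -0.011 with Gli2_EKO clusters weighted to control proportions, and the granular list in the suprabasal-like class, at 0.27 without the cells with 20 or more Lor UMIs (chosen after seeing the data, as were joining the dividing cluster, leaving out cells with a Lor UMI and leaving out the 10 cells with the most UMIs). The weighted log2 ratios of Krt5+Krt14 and Krt1+Krt10 over all cells were 0.33 and 0.033; they were 0.79 and 0.85 with the highest doublet scores removed, 0.76 and 0.83 over every barcode, 0.80 and 0.94 with dermal CPM subtracted and 0.79 and 1.00 without the top 10 cells. Krt5+Krt14 in the basal-like class was 0.18 at resolution 0.3, 0.21 at 0.8, 0.21 with keratins kept among the clustering genes, 0.30 with the dividing cluster joined and 0.19 without the top 10 cells. Krt1+Krt10 in the suprabasal-like class, 0.03 as reported, was 0.015 with doublets removed, -0.071 at a mitochondrial limit of 10%, 0.012 without integration, -0.13 without cells with a Lor UMI and 0.13 without the top 10 cells, so its sign is not fixed. Krt77 ranged from -3.15 to -1.27 in the basal-like and from -1.97 to -1.53 in the suprabasal-like class. The fibroblast level of all 7 genes was 349 (control) and 331 CPM (Gli2_EKO) with doublets removed and 1427 and 2356 with keratins kept. The percent of cells at a suprabasal share of 0.5 or over was 8.93 (control) and 11.6 (Gli2_EKO) thinned to 5000 UMIs, 9.85 and 12.9 with at least 10 keratin UMIs, 33.3 and 26.6 with 50, 20.8 and 19.2 by the type I share, 32.8 and 30.2 by the type II share and 12.9 (control) with Krt2, Krt77 and Krt15 added; in the interfollicular classes it was 25.7 and 22.1 at resolution 0.8 and 25.4 and 22.1 with keratins kept. The percent between 0.1 and 0.9 was 8.52 and 12.5 thinned to 5000, 25.7 and 24.2 with 50 UMIs, 15.4 (control) by the type I and 21.9 and 24.8 by the type II share. Genes higher and lower over all cells numbered 952 and 1890; higher were 1598 at a minimum of 20 UMIs and 470 at 200, lower 1051 at 200, and centred on the median ratio they were 1348 and 1243. In the basal-like class higher genes were 839 and 126 and lower genes 1203 and 260 at minimums of 20 and 200, and in the suprabasal-like class 751 and 108, and 1430 and 347. Apart from the alternatives' own construction, the cause was not tested. Depth limits Krt2 (46 UMIs) and the middle of the switch.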
